A study of Mus musculus with 18 samples.

Results

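Transcripts of 10 neutrophil granule and cytosol genes were followed through RNA-seq libraries of sorted B lineage cells, as a measure of myeloid transcripts in a CD138+ sort from bone marrow. The 10 genes were taken by symbol from the deposited table of 21761 genes, and each was found once. They comprised 4 genes of the azurophil granule (Elane, Mpo, Prtn3 and Ctsg), 4 of the specific granule (Ltf, Camp, Ngp and Lcn2) and the cytosolic pair S100a8 and S100a9. Levels are given as FPKM, fragments per kilobase of exon scaled to the counted reads of the library, which allows comparison between genes of different length.

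Neutrophils are made in the bone marrow, and granule proteins are made in waves while the precursors mature. Azurophil granules are filled first, at the promyelocyte stage, and specific granules later, at the myelocyte and metamyelocyte stages. S100a8 and S100a9 form the heterodimer calprotectin, which fills much of the cytosol of mature neutrophils. Mature B cells and plasma cells are not known for expression of these genes.

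The 18 libraries formed 6 groups of 3, from 3 cell types and 2 genotypes. Naive B cells (nB) came from the lymph nodes of unimmunized mice, whereas germinal center B cells (GCB, from lymph nodes) and bone marrow plasma cells (BMPC, sorted as CD138+) were taken 30 days after mice were given phycoerythrin in complete Freund's adjuvant. Dnmt3-deficient mice carried 1 Cre allele active in the B lineage and were Dnmt3afl/fl Dnmt3bfl/fl, and Dnmt3-sufficient littermates had the same floxed alleles and no Cre. All mice were young adults on a mixed B6;129S4 background, and GCB libraries pooled cells of more than 1 mouse. Since Cre was directed to the B lineage, a deletion in other cells of the marrow was not part of the model. Dnmt3a was at 5.18 FPKM or less and Dnmt3b at 9.29 or less in every library, and the gene totals include exons outside the floxed part, so these totals do not check the deletion. The 12 lymph node libraries held 6692516 to 8987922 counted reads and the 6 BMPC libraries 1355231 to 3803197, so 1 read weighed more in BMPC.

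The labelled cell type was checked first. Sdc1, which encodes CD138, was at 34.5 to 108 FPKM in the 6 BMPC libraries and at 1.11 or less in the 12 lymph node libraries. All 12 genes of a plasma cell list were above 0 in every BMPC library, 10 of them with each BMPC library above each lymph node library, led by Jchain, Mzb1 and Xbp1. In these bulk libraries fewer cells of a type and less RNA per cell cannot be told apart, and this holds for every level given here.

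Among the members, 2 pairs lie side by side in the genome. On build mm9, Prtn3 occupies chr10:79337221-79345919 and Elane chr10:79349057-79350961, both on the plus strand with 3137 bases between them. S100a8 (chr3:90472993-90473956, plus strand) and S100a9 (chr3:90496554-90499643, minus strand) are 22597 bases apart. The other members are Mpo at chr11:87607083-87617915, Ctsg at chr14:56718718-56721411, Lcn2 at chr2:32240153-32243317 and, on chromosome 9, Camp at chr9:109749889-109751970, Ngp at chr9:110322254-110325514 and Ltf at chr9:110921796-110945270. Of the 50-base words of their protein-coding transcripts, 7 of 3228 of Mpo are found in transcripts of another gene and 0 of those of the other 9 members, so only a small part of the Mpo count could be shared with these other transcripts.

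The 250 bases before the annotated start are shown for both neighbouring pairs, because within each pair 1 gene was read in all 6 BMPC libraries and its neighbour was not. Sequences are from RefSeq, build GRCm38.p6, on the gene's strand, 5′ to 3′, for all 10 members matched by symbol. Capitals mark matches, on either strand, to GAGGAAG (PU.1), TTGCNNAA (C/EBP), TGTGGT (RUNX) or CAACNG (MYB), where overlapping matches run together.
Prtn3 (chr10:79879417-79879666, plus strand): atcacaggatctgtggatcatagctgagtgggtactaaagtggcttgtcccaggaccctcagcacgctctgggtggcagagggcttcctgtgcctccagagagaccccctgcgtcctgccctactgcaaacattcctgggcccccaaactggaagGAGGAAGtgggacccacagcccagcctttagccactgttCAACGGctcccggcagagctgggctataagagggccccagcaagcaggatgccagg
Elane (chr10:79886062-79886311, plus strand): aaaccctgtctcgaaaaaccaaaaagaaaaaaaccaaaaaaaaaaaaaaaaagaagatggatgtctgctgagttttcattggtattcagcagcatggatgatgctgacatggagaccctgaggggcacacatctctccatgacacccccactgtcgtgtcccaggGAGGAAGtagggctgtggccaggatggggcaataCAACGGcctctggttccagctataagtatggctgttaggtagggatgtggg
S100a8 (chr3:90668821-90669070, plus strand): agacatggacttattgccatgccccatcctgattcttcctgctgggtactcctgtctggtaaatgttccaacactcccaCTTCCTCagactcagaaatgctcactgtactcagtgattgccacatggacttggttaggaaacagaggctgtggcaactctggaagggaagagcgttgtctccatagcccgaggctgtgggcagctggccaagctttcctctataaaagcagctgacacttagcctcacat
S100a9 (chr3:90695722-90695971, minus strand): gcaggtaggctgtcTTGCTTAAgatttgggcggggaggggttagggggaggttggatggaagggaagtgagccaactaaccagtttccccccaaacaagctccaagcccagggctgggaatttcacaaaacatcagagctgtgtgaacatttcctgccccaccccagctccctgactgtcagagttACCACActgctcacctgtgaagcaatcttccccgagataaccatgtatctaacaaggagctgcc

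Prtn3 and Elane hold the same 2 matches in the same order. GAGGAAG begins 95 bases before the start of Prtn3 and 85 before that of Elane, and the CAACNG match begins 56 and 51 bases before the start. GAGGAAG was matched in the promoters of 6 of the 10 members (all 4 azurophil genes, Lcn2 and S100a8) and in 10.6% of all 32851 promoters of this length. CAACNG was matched in 5 members against 29.3% of all promoters, TTGCNNAA in 4 (Ltf, Ngp, Lcn2 and S100a9) against 9.56%, and TGTGGT in 2 (Ctsg and S100a9) against 14%. The Camp promoter held no match to these letters. A match is a description of the letters only.

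In lymph node B cells of both kinds the granule genes were listed at 0. Of the 120 values of 10 members in 12 libraries, 119 were 0 and 1 was above it, 4 reads of Prtn3 (0.461 FPKM) in Dnmt3-sufficient GCB replicate 1. At the depth of these libraries 3 reads equal 0.163 FPKM (Ltf) to 1.14 FPKM (S100a8) at most, which is the level that a count of 0 still allows. The members took 4 of 96240129 reads in the lymph node libraries and 3522 of 14882814 in BMPC. Of all 11522 genes tested (FPKM above 1 in at least 2 libraries), 0.963% were at 0 in all 12 lymph node libraries, and 7 of the 8 members that passed this filter were among them. Intervals and limits here cover counting error only, since amplified reads are not independent molecules.

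In BMPC the same genes were mostly either well covered or listed at 0, library by library. Of 60 values, 32 were above 0 and 28 (46.7%) were 0. For the 8 members tested it was 18 of 48 (37.5%), against 31.0% of values at 0 over all tested genes in these libraries. Such zeros were also found for a gene that every cell uses. Of a list of 18 such genes 17 were above 0 in all 6 BMPC libraries, and Tbp, the TATA-binding protein of general transcription, was listed at 0 in 3 of them, at 23.2 to 76.1 FPKM in the other 3 and at 24.5 to 53.1 in the lymph node libraries. A 0 in a BMPC library is therefore given here only as listed. Among the 32, 30 rested on 15 reads or more and 1 on 1 to 3 reads, with a median of 76 reads. For all tested genes, 10.4% of BMPC values above 0 rested on 1 to 3 reads. Only Prtn3 and S100a8 were read in all 6 BMPC libraries, and these were also the members with each BMPC library above each lymph node library, as were 3.42% of tested genes.

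**Figure D1:**
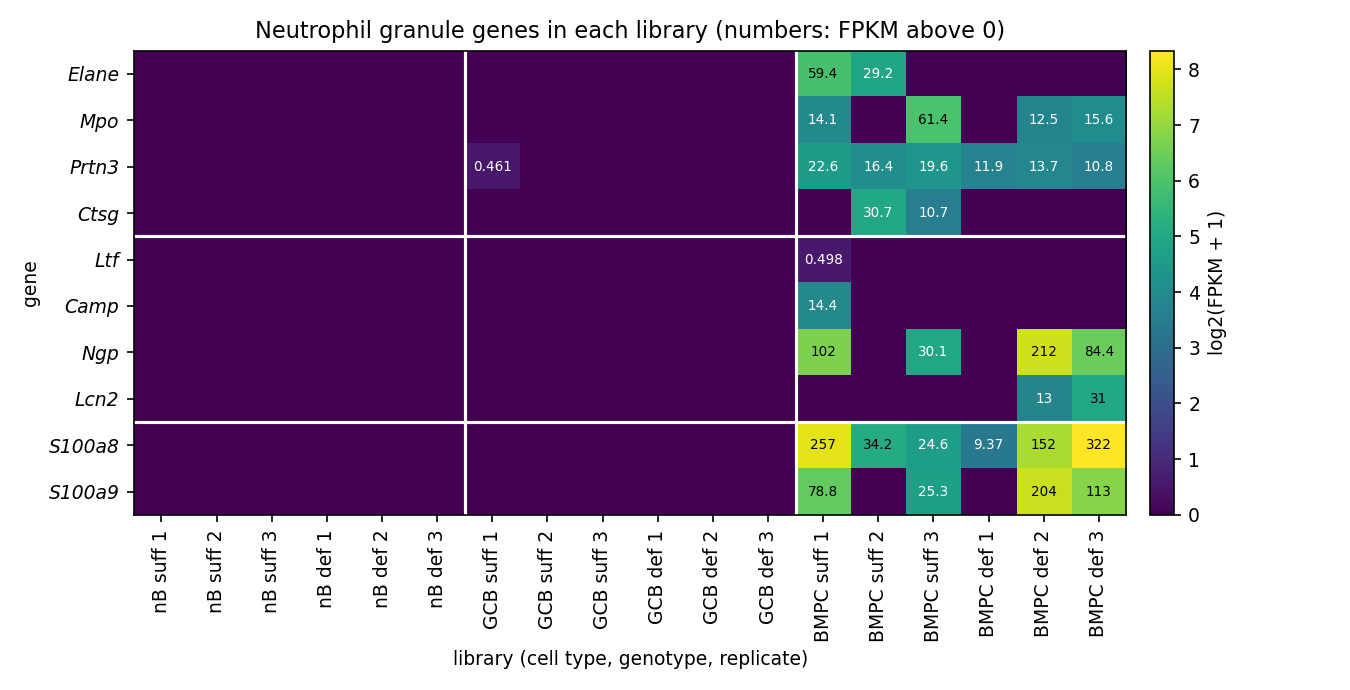
FPKM of the 10 members (rows, by class) in the 18 libraries (columns, by cell type, genotype and replicate), with colour as log2(FPKM + 1) and the FPKM printed where it is above 0. The nB and GCB columns are empty except for Prtn3 at 0.461 in 1 library, and 28 of the 60 BMPC cells are at 0.

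Prtn3 encodes proteinase 3, a serine protease of the azurophil granule. It was at 22.6, 16.4 and 19.6 FPKM in Dnmt3-sufficient BMPC replicates 1 to 3 and at 11.9, 13.7 and 10.8 in the Dnmt3-deficient ones. It was the steadiest member, with means of 19.5 ± 3.12 and 12.1 ± 1.46 (SD, n = 3), and the genotypes did not overlap. Elane, its neighbour, encodes neutrophil elastase. Elane was at 59.4 and 29.2 FPKM in Dnmt3-sufficient replicates 1 and 2 (120 and 102 reads) and at 0 in replicate 3 and in all 3 Dnmt3-deficient libraries. A count of 3 reads would have been 0.898 FPKM in that replicate 3 and 1.44 to 2.41 in the Dnmt3-deficient libraries. This limit covers counting error only. Since Tbp was also listed at 0 in some BMPC libraries, the zeros of Elane are given only as listed.

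Ctsg and Mpo varied in other libraries than Elane did. Ctsg, for cathepsin G, a further serine protease of this granule, was at 30.7 and 10.7 FPKM in Dnmt3-sufficient replicates 2 and 3 and at 0 in the other 4 BMPC libraries. Mpo, for the myeloperoxidase that makes hypochlorous acid, was at 14.1, 0 and 61.4 FPKM in Dnmt3-sufficient and at 0, 12.5 and 15.6 in Dnmt3-deficient BMPC. Elane and Ctsg were thus read together in 1 library, Dnmt3-sufficient replicate 2, in which Mpo was at 0, whereas the 61.4 FPKM of Mpo in replicate 3 came with 0 reads of Elane.

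Ngp was the most abundant specific granule gene. Ngp, neutrophilic granule protein of the cathelicidin-related family, was at 102, 0 and 30.1 FPKM in Dnmt3-sufficient and at 0, 212 and 84.4 in Dnmt3-deficient BMPC. Lcn2, for lipocalin 2, which binds bacterial siderophores, was at 0 in all 3 Dnmt3-sufficient BMPC libraries and at 0, 13.0 and 31.0 in the Dnmt3-deficient ones. The other specific granule genes were read in 1 library. Camp, the cathelicidin precursor, had 19 reads (14.4 FPKM) in Dnmt3-sufficient replicate 1 and Ltf, for the iron-binding lactoferrin, 3 reads (0.498 FPKM) in the same library, and both were at 0 elsewhere. These 2 did not pass the filter on low values and were not tested.

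S100a8 reached the highest level of any member. It was at 257, 34.2 and 24.6 FPKM in Dnmt3-sufficient and at 9.37, 152 and 322 in Dnmt3-deficient BMPC, and the lowest value rested on 6 reads. S100a9, the partner subunit, was at 78.8, 0 and 25.3 and at 0, 204 and 113. Where both were read, S100a9 was above S100a8 in 2 of 4 libraries. S100a9, Ngp and Mpo were above 0 in the same 4 BMPC libraries and at 0 in the same 2.

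Summed over the 10 members, FPKM was 549, 110 and 172 in Dnmt3-sufficient and 21.3, 608 and 577 in Dnmt3-deficient BMPC, so the genotypes overlapped. As a share of all counted reads this was 0.0382%, 0.00878% and 0.0244% in Dnmt3-sufficient BMPC. In Dnmt3-deficient BMPC it was 0.00159% (95% Wilson interval 0.00109 to 0.00233), 0.0463% and 0.0357%. The classes did not follow the sum. Azurophil genes summed to 96.2, 76.3 and 91.7 FPKM in Dnmt3-sufficient and 11.9, 26.1 and 26.4 in Dnmt3-deficient BMPC, without overlap, whereas specific granule genes (0 to 117 against 0 to 225) and the S100 pair (34.2 to 336 against 9.37 to 435) overlapped. Azurophil genes made up 17.5%, 69.0% and 53.4% of member FPKM in Dnmt3-sufficient and 56.0%, 4.30% and 4.57% in Dnmt3-deficient libraries. Of the 4 azurophil genes, 1 (Prtn3) was itself without overlap, and in Dnmt3-deficient replicate 1 the azurophil sum was Prtn3 alone, on 20 reads. Sums of 6 of 12 other marker lists did not overlap between genotypes either. The class sums were looked at after the values were known, and carry no test.

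**Figure D2:**
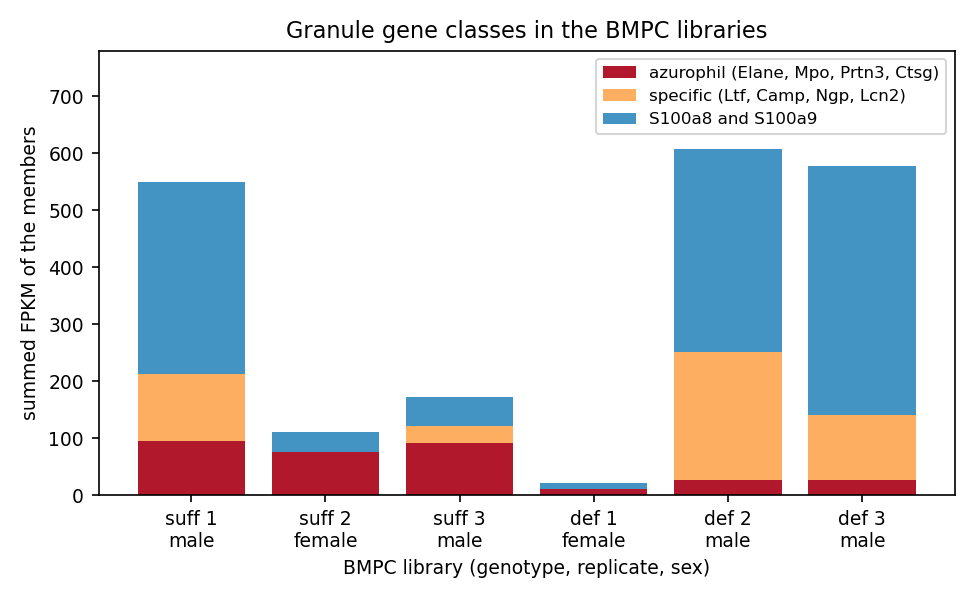
Summed FPKM (bars from 0) of azurophil, specific granule and S100 members in the 6 BMPC libraries, labelled by genotype, replicate and sex. The azurophil part is 76.3 to 96.2 in the Dnmt3-sufficient and 11.9 to 26.4 in the Dnmt3-deficient libraries, while the total runs from 21.3 to 608.

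The sex of the mice moved with these values. The 2 BMPC libraries from females, Dnmt3-sufficient replicate 2 and Dnmt3-deficient replicate 1, had the lowest sum of their genotype (110 and 21.3 FPKM, against 172 to 608 in the 4 from males). Mpo, Ngp and S100a9 were at 0 in both female and above 0 in all 4 male libraries, as were 0.503% of tested genes, and 3.56% of tested genes had every male library above both female ones. Over all members, 26 of 40 values were above 0 in male and 6 of 20 in female libraries. This pattern was noticed after the values were seen and its part in the results was not tested beyond sex as a covariate. Prtn3 and the azurophil sum did not overlap between genotypes, so their genotype order within each sex was fixed and is no check on sex. Each genotype had 1 female library.

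Across cell types, Prtn3 and S100a8 passed the test below as higher in BMPC than in lymph node B cells in both genotypes. The other 6 members tested passed it in 1 genotype only. A limma model of the 6 group means was fitted to log2(FPKM + 1), and a gene passed at a Benjamini-Hochberg adjusted p of 0.05 or less with a change of at least 1 on that scale. Against nB, 5 of the 8 members tested passed in Dnmt3-sufficient cells, all higher in BMPC, where 9.74% of all tested genes did, and 5 of 8 in Dnmt3-deficient cells, against 6.85%. Against GCB it was 5 of 8 in each genotype, against 6.67% and 6.14%. Each member passed the filter on low values through its BMPC libraries alone, so these counts are a description of genes that had to be high in BMPC. The median change of the 8 against nB was 3.64 and 3.32, and that of all tested genes was −0.70 and −0.84.

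Prtn3 had the smallest adjusted p of the members. It was higher in BMPC than in nB by 4.35 (SE 0.33, adjusted p = 4.64e-08, limma) in Dnmt3-sufficient and by 3.71 (SE 0.33, adjusted p = 3.61e-07, limma) in Dnmt3-deficient cells. With 3 reads set as the floor of each nB library, these are at least 51.2-fold and at least 31.2-fold. S100a8 was higher by 5.94 (SE 0.96, adjusted p = 0.000153, limma) and 6.32 (SE 0.96, adjusted p = 9.49e-05, limma), at least 105-fold and at least 159-fold. These limits rest on single libraries, since they were at least 29.4-fold without Dnmt3-sufficient replicate 1 and at least 79.6-fold without Dnmt3-deficient replicate 3. Both genes passed against GCB as well, in each genotype.

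The other members passed against nB in 1 genotype each. In Dnmt3-sufficient cells Elane (3.61 ± 0.93 SE), Mpo (3.29 ± 1.11) and Ctsg (2.85 ± 0.76) passed against nB, with limma adjusted p of 0.00585, 0.0266 and 0.00764. In Dnmt3-deficient cells Ngp (4.72 ± 1.57), Lcn2 (2.94 ± 0.78) and S100a9 (4.84 ± 1.55) passed, with adjusted p of 0.0246, 0.00707 and 0.0206. Ngp and S100a9 missed the threshold in Dnmt3-sufficient cells at 3.88 and 3.68 (adjusted p = 0.0591 and 0.0697, limma) and Mpo in Dnmt3-deficient cells at 2.60 (adjusted p = 0.0717, limma). The interaction of genotype with BMPC against nB was called for 0 of the 8 members by limma (0.555% of tested genes). The genotypes were thus not shown to differ in this respect. An unadjusted limma p under 0.05 was found for 3 of the 8 members and for 1373 of all 11522 tested genes. The 3 were Elane, Ctsg and Lcn2. Each passed the filter on low values through 2 BMPC libraries of 1 genotype, so this count is a description.

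The spread used in these tests came from all 18 libraries, 12 of which were at 0 for nearly all members. When only the 6 libraries of each comparison were fitted, Prtn3 and S100a8 still passed in both genotypes against nB (adjusted p of 0.00282 and 0.00954, and 0.00309 and 0.0219, limma), and the 3 others in each genotype did not.

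**Figure D3:**
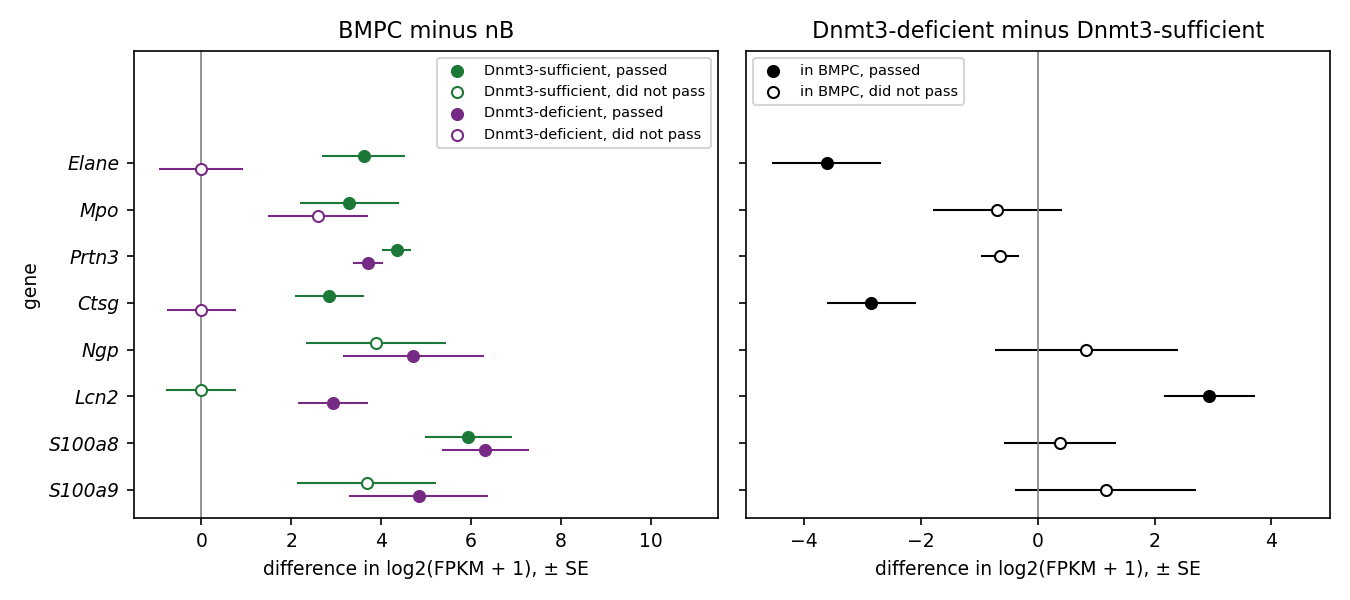
Differences in log2(FPKM + 1) with their SE for the 8 members tested, BMPC minus nB in each genotype (left) and Dnmt3-deficient minus Dnmt3-sufficient in BMPC (right), with filled points for those that passed. Prtn3 and S100a8 are filled in both genotypes on the left, and Elane, Ctsg and Lcn2 are filled on the right.

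Between genotypes, members differed in opposite directions in BMPC. Of the 8 tested, 2 passed as lower in Dnmt3-deficient BMPC (Elane and Ctsg), 1 as higher (Lcn2) and 5 did not pass, against 3.98% of tested genes called in either direction. Elane was lower by −3.61 (SE 0.93, adjusted p = 0.0374, limma), Ctsg by −2.85 (SE 0.76, adjusted p = 0.0443, limma), and Lcn2 was higher by 2.94 (SE 0.78, adjusted p = 0.0412, limma). These 3 genes passed the filter on low values through 2 libraries each, all of the genotype in which the gene was higher. Their calls are thus a description of genes that entered the test only through that genotype. Each of the 3 has 1 genotype at 0 in all 3 libraries and 1 library of the other at 0 as well. The libraries of the genotypes therefore overlapped at 0, and an exact two-sided permutation test of 3 against 3 libraries gave p = 0.4 for each, where 0.1 is the smallest it can give. In the fit of these 6 libraries alone, 0 of 8 members passed, with an adjusted p of 0.779 for all 3 genes (limma), and 0 of 11522 genes passed.

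Prtn3 was the member without overlap between genotypes in BMPC, as was the case for 10.3% of tested genes. Its difference of −0.64 (SE 0.33) did not pass (adjusted p = 0.287, limma), and the exact permutation p was 0.1, the smallest possible. Mpo (−0.69, SE 1.11), S100a8 (0.38, SE 0.96), Ngp (0.83, SE 1.57) and S100a9 (1.16, SE 1.55) had errors larger than the difference. The median difference of the 8 members was −0.13 and that of all tested genes −0.05. With 119 of 120 values at 0 in nB and GCB, comparisons among those groups could call no member and are not given.

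Other neutrophil genes were present in part. Of a further 36 genes of neutrophils and their precursors 35 were in the table and Ly6g was not analysed here. Of these 35, 13 were at 0 in all 18 libraries, among them Mmp8, Mmp9, Cd177, Fcnb, Fpr1 and Cebpe, and 6 were above 0 in BMPC only. The 3 with the highest mean in BMPC (Serpinb1a, Cxcr2 and Cybb) were read in all 18 libraries. Of the 16 that were tested, 3 passed as higher and 3 as lower in BMPC than nB in Dnmt3-sufficient cells, and 2 as higher and 3 as lower in Dnmt3-deficient cells. Over all 11522 tested genes this was 1122 and 3177 in Dnmt3-sufficient and 789 and 3522 in Dnmt3-deficient cells. Summed over the list, FPKM was 256 to 445 in BMPC, 660 to 861 in nB and 155 to 186 in GCB.

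Between genotypes in BMPC, 1 of the 16 passed as higher and 1 as lower in Dnmt3-deficient cells, against 154 and 305 of 11522 genes. The higher one was Cybb, for the gp91phox subunit of the NADPH oxidase, at 11.2 to 37.1 FPKM in Dnmt3-sufficient and 58.5 to 84.8 in Dnmt3-deficient BMPC (1.73, SE 0.32, adjusted p = 0.00592, limma). The lower one was Prss57.

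A further 3 genes of this list, Prss57 among them, were chosen for description after their values were seen. Retnlg, a resistin-like protein of neutrophils, was at 16.8, 0 and 23.8 FPKM in Dnmt3-sufficient and at 0, 93.3 and 25.4 in Dnmt3-deficient BMPC, the same 4 libraries as Mpo, Ngp and S100a9. Hp, for haptoglobin, also a specific granule protein, was at 57.9, 0 and 32.2 FPKM in Dnmt3-sufficient and at 13.2, 60.9 and 0.328 in Dnmt3-deficient BMPC, and at 0 in all 12 lymph node libraries. It passed as higher in BMPC than nB in both genotypes (3.64 ± 1.24 SE and 3.40 ± 1.24, limma adjusted p = 0.0280 and 0.0381). Both calls were lost with only the libraries compared (adjusted p = 0.157 and 0.139, limma) and with no filter (0.0547 and 0.0707), the second also with sex as a covariate (0.0605), and leaving out 1 library raised them to as much as 0.131 without Dnmt3-sufficient replicate 1 and 0.188 without Dnmt3-deficient replicate 2. Prss57, a serine protease of azurophil granules like Elane, Prtn3 and Ctsg, was at 14.7, 20.0 and 7.71 FPKM in Dnmt3-sufficient and at 0, 0.805 and 0 in Dnmt3-deficient BMPC. It differed between genotypes in BMPC by −3.55 (SE 0.37, adjusted p = 2.98e-05, limma), with no overlap, as for 10.3% of tested genes. Of the BMPC libraries, only Dnmt3-sufficient ones exceeded the 1 FPKM of the filter, so this call is a description. The call was lost in the fit of these 6 libraries alone (adjusted p = 0.688, limma), as was that of Cybb, and with a quality weight per library (adjusted p = 0.0620).

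Of the antigens of the stain meant to remove other cells, 3 were in the table and each was at 9.36 FPKM or less in BMPC. Itgam (CD11b) was above 0 in 2 of 6 BMPC libraries, at up to 2.56 FPKM, Itgax (CD11c) in 1 at 3.25 and Thy1 (CD90) in 4 at up to 9.36, against 3.53 or less in the lymph node libraries. Thy1 passed as higher in BMPC than GCB in Dnmt3-deficient cells (2.09, SE 0.79, adjusted p = 0.0499, limma). Itgax and Thy1 were highest in Dnmt3-deficient replicate 2, which also had the highest member sum (608 FPKM). Itgam was highest in Dnmt3-sufficient replicate 2, where Ngp and S100a9 were at 0. Itgam, Itgax and Thy1 summed to 0 FPKM in Dnmt3-deficient replicate 3, whose member sum was 577.

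Genes listed as markers of other bone marrow cells were read in the same BMPC libraries, and their part in the results was not tested. A list sum does not show that cells of that type were present. The sums of the monocyte and eosinophil lists came mostly from Ly6c2 and from Prg2, with other genes of these lists at 0. Of 14 erythroid genes 10 were in the table, and they summed to 2669 to 10572 FPKM in BMPC against 329 or less in the lymph node libraries, led by Car1, Car2 and Hbb-bs. The progenitor list of 10 genes summed to 51.0 to 164 against 29.6 or less, led by Gata1, Cd34 and Flt3, with 3 genes at 0 throughout. Early B genes (Dntt, Vpreb3 and Il7r highest, 10 listed) summed to 415 to 860 in BMPC and 185 to 378 in the lymph node libraries, and T cell genes (Cd3g, Cd28 and Cd3d highest, 10 listed) to 80.2 to 274 and 5.9 to 126. Of 16 monocyte and macrophage genes, 6 were at 0 in all BMPC libraries. The sum of 1033 to 2837 was mostly Ly6c2 (976 to 2678), followed by Cd68 and Irf8. Cd68 was at 40.5 to 158 FPKM in BMPC and at 1.30 to 69.6 in the lymph node libraries. Irf8 was lower in BMPC, at 0.945 to 8.02 against 39.0 to 96.7. Of 14 genes of eosinophils, basophils and mast cells, 8 including Epx were at 0 in all 18 libraries, and Prg2 alone was at 1391 to 2326 in BMPC, with Cpa3 and Il5ra next.

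Sums of 6 of 12 marker lists did not overlap between genotypes in BMPC. Of these, 3 were lower in Dnmt3-deficient libraries, like the azurophil sum, and 3 were higher. Single genes are another measure than sums, and 10.3% of all tested genes did not overlap. Among tested genes of these lists, 0 of 6 progenitor, 0 of 8 mature B and 2 of 8 monocyte genes did not overlap. Of 12 plasma cell genes 1 was lower and 4 were higher without overlap. Of 18 genes used by every cell 8 were lower and 1 was higher. The part of these lists in the genotype differences was not tested. Progenitor genes summed to 98.0 to 164 FPKM in Dnmt3-sufficient and 51.0 to 72.3 in Dnmt3-deficient BMPC, and genes used by every cell to 20955 to 22072 and 19471 to 20331. Erythroid genes summed to 7009 to 10572 and 2669 to 6902, but their leading genes Car1 and Car2 overlapped, and 3 of the 9 tested did not. The sums that went the other way were of monocyte and macrophage genes (1033 to 1583 and 1724 to 2837), plasma cell genes (19540 to 30650 and 35311 to 52764) and mature B genes (1172 to 1657 and 1733 to 1846). No gene of the progenitor, erythroid or monocyte lists passed between genotypes in BMPC by limma. An unadjusted limma p under 0.05 was found for 2 of 6, 4 of 9 and 0 of 8 tested genes, against 2342 of all 11522.

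**Figure D4:**
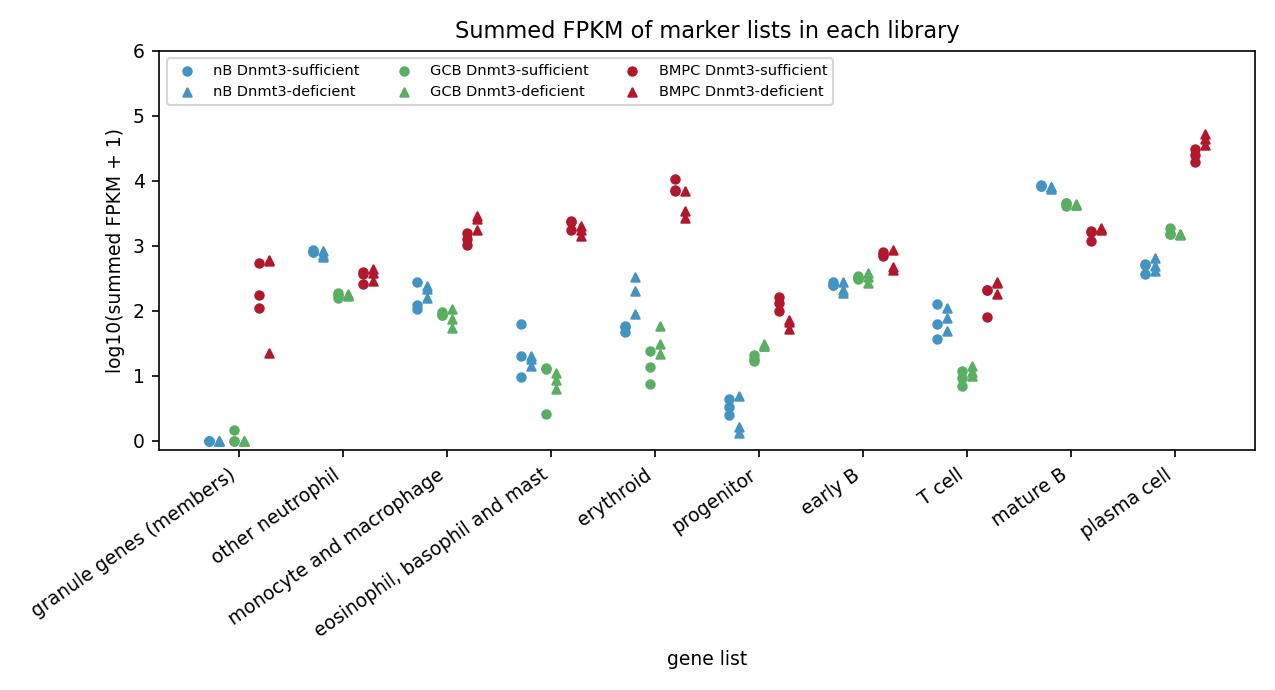
Summed FPKM of the members and of 9 marker lists in each of the 18 libraries, as log10(sum + 1), with colour for the cell type and shape for the genotype. The members sit at 0 in 11 of 12 lymph node libraries and between 21.3 and 608 FPKM in BMPC, under the plasma cell list (19540 to 52764) and the erythroid list in every BMPC library.

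The genes whose pattern was most like the mean log2(FPKM + 1) of the members over the 18 libraries included Gm5111, Adgrg1, Tspan8, Isg20, Ubb, Aldh1l2, Retnlg, Gm561 and Chmp2a, with Pearson r of 0.94 to 0.91 among 11514 tested genes. This likeness is a description. It rests mainly on the step between 12 lymph node and 6 BMPC libraries, which differ in tissue and depth. Gm5111, Adgrg1, Tspan8 and Retnlg were at 0 in all 12 lymph node libraries, whereas Ubb was at 5931 to 8246 FPKM in BMPC and up to 3275 in the lymph node libraries. Of the genes named here, Retnlg was the only one on the fixed neutrophil lists.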

How the data were processed

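RNA of sorted cells was amplified (SMART-Seq v2) and sequenced as paired ends. The authors mapped reads to mm9 with TopHat, keeping single hits, counted them over UCSC KnownGenes with summarizeOverlaps and deposited FPKM values. The strand setting is not given in the sources used here. The submitters' processing notes name R 3.2.2 and edgeR 3.12.1. Deposited columns of the authors' own comparisons (fold changes and adjusted p-values) were not used. No column belonged to other samples (0).

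FPKM times exon length gave whole reads (within 0.01) for 100% of values, from which depth was recovered. The main test was limma 3.58.1 (R 4.3.3) on log2(FPKM + 1), a two-sided model of the 6 group means (eBayes with trend), adjusted over the 11522 genes that exceeded 1 FPKM in 2 or more libraries. Since the deposited values are FPKM, a count-based fit (voom on recovered reads) was an alternative only. The fit was also run on simulated reads with a common spread for all genes and libraries. These lacked the many zeros of the BMPC libraries, so they do not check the calls made there. Replicates are libraries with no stated pairing or culture beyond the labels. Each GCB library shares a label code with a library of the other genotype and the same sex, but no pairing is stated. The main fit did not use these codes, so p-values measure the spread between libraries. Members and lists were chosen with earlier results of these data known. Named genes were all members, the 3 highest in BMPC of each list, the stain antigens and Sdc1, and the 10 most alike genes, of which 1 is not reported here. Promoter sequences were from RefSeq and positions from GENCODE vM1. Alternatives were another pseudocount, filters, scaling, libraries fitted, sex, library weights, voom on recovered reads, a replicate block and each library left out.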

Additional observations from a re-analysis of the deposited data

Results flagged for a closer look

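Prss57, a serine protease gene of the azurophil granule, had a difference between BMPC and nB that differed between genotypes. Its interaction term was −3.55 on the log2(FPKM + 1) scale (SE 0.52, adjusted p = 0.00245, limma over 11522 genes). This equals its genotype difference in BMPC alone (−3.55), so nB added no second result. Of these groups, only Dnmt3-sufficient BMPC exceeded the 1 FPKM of the filter, so the call is a description. BMPC exceeded nB by 3.83 (SE 0.37) in Dnmt3-sufficient and by 0.28 (SE 0.37, adjusted p = 0.567, limma) in Dnmt3-deficient cells. All 3 Dnmt3-sufficient BMPC libraries were above the 3 Dnmt3-deficient ones, where 10.3% of tested genes had no overlap in either direction. The call was lost with a quality weight per library (adjusted p = 0.125) and with voom on recovered reads (adjusted p = 0.119), and held under the other alternatives (adjusted p of 0.000424 to 0.0432). The genotype difference in BMPC was lost when the BMPC libraries alone were fitted (adjusted p = 0.688, limma).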

How the results depend on the processing

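Member counts between cell types depended on which libraries gave the spread. With only the libraries of the groups compared, 2 members were called in place of 5 in each of the 4 comparisons of BMPC with nB or GCB. With FPKM above 3 in at least 3 libraries, which leaves 5 members to test, 3 were called in Dnmt3-sufficient cells against nB and against GCB. Leaving out 1 library gave 4 to 7 calls in Dnmt3-sufficient and 3 to 6 in Dnmt3-deficient cells, against nB and against GCB alike, and 0 to 1 for the interaction. The 3 members called between genotypes in BMPC (Elane, Ctsg and Lcn2) became 0 with no filter, with only the libraries compared and with a quality weight per library. FPKM above 3 in at least 3 libraries also gave 0, but these 3 genes were read in 2 libraries each and were not tested there. The calls became 1 with voom on recovered reads (Lcn2), and 0 to 2 when a library was left out. They were 0 without Dnmt3-sufficient replicate 2, Dnmt3-deficient replicate 2 or Dnmt3-deficient replicate 3. Of all genes, 459 were called there, which became 18 with library weights, 262 with voom, 0 with only the libraries compared and 580 to 922 with 1 BMPC library left out (720 without Dnmt3-sufficient replicate 1, 693 without Dnmt3-sufficient replicate 2 and 922 without Dnmt3-deficient replicate 1). The cause was not tested. With a quality weight per library, the genotype difference in BMPC reversed for Ngp (-0.22) and S100a8 (-0.10). With each library left out in turn, that difference ran from -2.34 to 0.64 for Mpo, from -1.11 to 3.19 for Ngp, from -0.62 to 1.86 for S100a8 and from -0.68 to 3.58 for S100a9. The replicate block within GCB left 0 members and 0 genes called between genotypes. Deviations of GCB libraries with the same label code, and so the same replicate number, correlated at -0.017 to 0.026. The codes were therefore not taken to pair them. The other counts of members were within 1.5 times of the main count or the same. In the shallowest BMPC library, 3 reads equalled 0.807 FPKM (Ltf) to 5.65 FPKM (S100a8). This is the level that a count of 0 still allows by counting error alone, and the zeros of Tbp in BMPC show that it is no bound there.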
